A study of Rattus norvegicus with 50 samples.

Results

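The lung holds 3 peptide systems that set the tone of its vessels, and 10 of their genes were measured here among 25208 genes tested in rat lung. The members were chosen by name as the genes Npr1, Npr2, Npr3, Nppa, Adm, Calcrl, Ramp2, Edn1, Ednra and Ednrb. Npr3 and Adm were also selected on the same values that are described below, Npr3 for lower signal late after exposure and Adm for a difference that turned between days, so their values are given as a description with no test. The other 8 genes were tested.

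Male F344 rats, an inbred strain, were 12 weeks old when they breathed, through the nose only, an aerosol of TiO2 P25 nanoparticles at 10 mg/m3 (exposed) or filtered air (control). Over 4 weeks they inhaled it on 5 days of each week, for 6 hours at a time. Lungs were taken right after the last exposure (D0), or after a recovery of 3 days (D3), 28 days (D28), 90 days (D90) or 180 days (D180). There were 5 control and 5 exposed rats at each day, which makes 10 groups and 50 rats. Total RNA of the accessory lobe of each rat was labelled with Cy3 and hybridised to an array of its own, so that the values cover all cells of the lobe.

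Natriuretic peptides relax vessels by raising cyclic GMP. Atrial natriuretic peptide, encoded by Nppa, acts through Npr1, C-type natriuretic peptide acts through Npr2, and Npr3 is the clearance receptor that takes these peptides up without making cyclic GMP. Adrenomedullin, encoded by Adm, is a vasodilator peptide whose receptor is formed by Calcrl together with the accessory protein Ramp2, both abundant in lung endothelium. Endothelin-1, encoded by Edn1, constricts vessels through Ednra on smooth muscle, while Ednrb on endothelium removes endothelin from the blood and signals to nitric oxide synthase.

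Each gene was read by a probe of 60 bases, and Ednra by a pair of them. The first 30 bases of the probes for Npr3 and Adm, the genes with the largest differences, and for Ramp2, the gene with the smallest adjusted p, are shown in lower case. The positions are those of the whole probe in the array files, on rat build rn4.
Npr3, chr2:61278264-61278323, minus strand: cttaaagagatagttgaaggacagacatca
Adm, chr1:168382310-168382369, plus strand: gtggagagcgcctgattaccgcctgtggat
Ramp2, chr10:90276621-90276680, plus strand: attattacaagacttccatggactctgtca

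The endothelin receptors are related proteins, and a probe of Ednra (chr19:32102982-32103041, plus strand) overlaps in sequence with that of Ednrb (chr15:87896574-87896633, minus strand). Over 49 aligned bases the probes matched at 43 and differed at 6, and capitals mark the bases that differ. The pair is shown because the likeness bears on how the Ednra values below are read, and its part in them was not tested.
Ednra: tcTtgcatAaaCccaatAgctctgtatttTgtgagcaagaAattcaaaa
Ednrb: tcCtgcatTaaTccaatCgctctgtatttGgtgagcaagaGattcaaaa
The other Ednra probe (chr19:32108094-32108153, plus strand) matched the Ednrb probe at no more than 21 of 55 bases, had the higher mean signal and was the one used for Ednra.

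The arrays came from 7 slides. Arrays of D0, D3 and D28 filled 4 slides and the later days filled 3, except for replicate 1 of the exposed rats at D3, which shared a slide with D90 and D180. Levels of D90 and D180 were therefore not set against those of earlier days, since day and slide cannot be told apart there, whereas each exposed group shared slides with its own controls. Between 68.7% and 84.5% of gene spots per array were well above background. All 8 lung epithelial markers, among them Sftpc and Scgb1a1, were well above background on all 50 arrays. Values are normalized signals on the log2 scale, and a difference is exposed minus control with the standard error (SE) of the fit. Fewer cells of a type and less RNA per cell cannot be told apart in such a lobe.

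Nppa was not well above background on any of the 50 arrays. Its normalized signal stayed between 2.46 and 3.49 over all rats, so no change is given for it. Its relative Nppb, which encodes B-type natriuretic peptide, was not well above background on any array either. The remaining 9 members were well above background on all 50 arrays and saturated on none.

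Npr3 was under-expressed in exposed rats at D0, D28, D90 and D180, by 2.41 to 2.68-fold, with no overlap between the groups on any of these days. At D0 the control rats had signals of 8.50, 8.63, 8.72, 8.71 and 8.14, and the exposed rats 7.71, 7.29, 7.17, 7.11 and 7.02. Every exposed rat lay below every control rat, and the difference was -1.28 (SE 0.19) between means of 8.54 ± 0.24 and 7.26 ± 0.27 (SD, n = 5 each). At D28 control rats had 8.72, 8.37, 8.83, 8.26 and 8.39 and exposed rats 7.10, 7.07, 6.96, 7.94 and 7.14. The exposed rat at 7.94 stood apart from the other 4, and the difference was -1.27 (SE 0.19). At D90 control rats had 8.60, 8.42, 8.78, 8.24 and 8.32 and exposed rats 7.04, 7.33, 6.69, 7.68 and 7.04, a difference of -1.32 (SE 0.19). At D180 control rats had 8.61, 8.44, 8.81, 8.96 and 9.01 and exposed rats 7.35, 7.46, 7.41, 7.09 and 7.43, a difference of -1.42 (SE 0.19).

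D3 was the exception for Npr3. Control rats had 7.22, 7.85, 7.96, 7.97 and 8.12 there and exposed rats 7.01, 7.23, 7.18, 7.80 and 7.998, and the groups overlapped. The difference was -0.38 (SE 0.19), with 2 of the 5 exposed rats below all controls. The smaller difference came with lower controls, since the control mean was 7.82 ± 0.35 at D3 against 8.54 ± 0.24 at D0 and 8.51 ± 0.25 at D28. The exposed means were 7.44 ± 0.43 at D3, 7.26 ± 0.27 at D0 and 7.24 ± 0.40 at D28. Within slides, Npr3 was lower in exposed rats on all 4 slides at D0 (-1.71 to -0.61) and on all 3 slides that held both groups at D28 (-1.29 to -0.89), D90 (-1.83 to -0.91) and D180 (-1.46 to -1.34). At D3 it was lower on 2 slides and higher on 2, from -0.79 to 0.58. Ordered by mean within D0 to D28, the exposed groups were the lowest, the controls at D3 came next, and the step from there to the controls at D28 (0.69) was the only one between neighbours larger than their larger SD. Within D90 and D180, the steps from the exposed rats at D180 to the controls at D90 (1.13) and on to the controls at D180 (0.29) were larger than that SD, and the step between the exposed groups was not.

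Adm had a difference of opposite sign before and after D28. At D0 control rats had 10.84, 11.38, 11.03, 10.998 and 11.52 and exposed rats 11.64, 11.83, 11.73, 11.85 and 11.81, so that every exposed rat lay above every control rat, by 1.53-fold on average (difference 0.62, SE 0.16). At D3 control rats had 11.32, 11.38, 10.85, 11.22 and 11.27 and exposed rats 11.71, 11.56, 11.77, 11.84 and 11.36. There 4 of 5 exposed rats were above all controls, and the difference was 0.44 (SE 0.16).

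From D28 on, all exposed rats lay below all control rats. At D28 control rats had Adm signals of 12.13, 12.11, 11.98, 12.13 and 12.06 and exposed rats 11.72, 11.32, 11.29, 10.997 and 10.82, a difference of -0.85 (SE 0.16). At D90 control rats had 12.39, 11.86, 12.05, 12.57 and 11.83 and exposed rats 11.07, 11.31, 10.95, 11.40 and 10.65, a difference of -1.06 (SE 0.16), or 2.09-fold lower. At D180 control rats had 11.83, 11.69, 11.89, 11.97 and 12.21 and exposed rats 11.61, 11.10, 11.67, 10.82 and 11.35, a difference of -0.61 (SE 0.16). The sign held on every slide that held both groups, from 0.34 to 0.84 at D0 and 0.03 to 0.71 at D3. From D28 on it ran from -0.99 to -0.62, then from -1.26 to -0.82 (D90) and from -0.87 to -0.31 (D180).

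Control and exposed rats both had other Adm means at D28 than at D0. In control rats the means were 11.15 ± 0.29 (D0) and 11.21 ± 0.21 (D3) before 12.08 ± 0.07 (D28), which is 0.93 (SE 0.16) above D0 on the same slides. The exposed mean was 11.77 ± 0.09 at D0 and 11.23 ± 0.34 at D28. Ordered by mean within D0 to D28, the controls at D0 and D3 and the exposed rats at D28 came lowest and did not differ beyond their SD. The exposed rats at D3 lay 0.42 above them, followed by those at D0, and the controls at D28 lay another 0.31 higher, both steps larger than the larger SD of the neighbours. Within D90 and D180, the only such step parted the exposed rats at D180 from the controls at D180 (0.61).

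**Figure D1:**
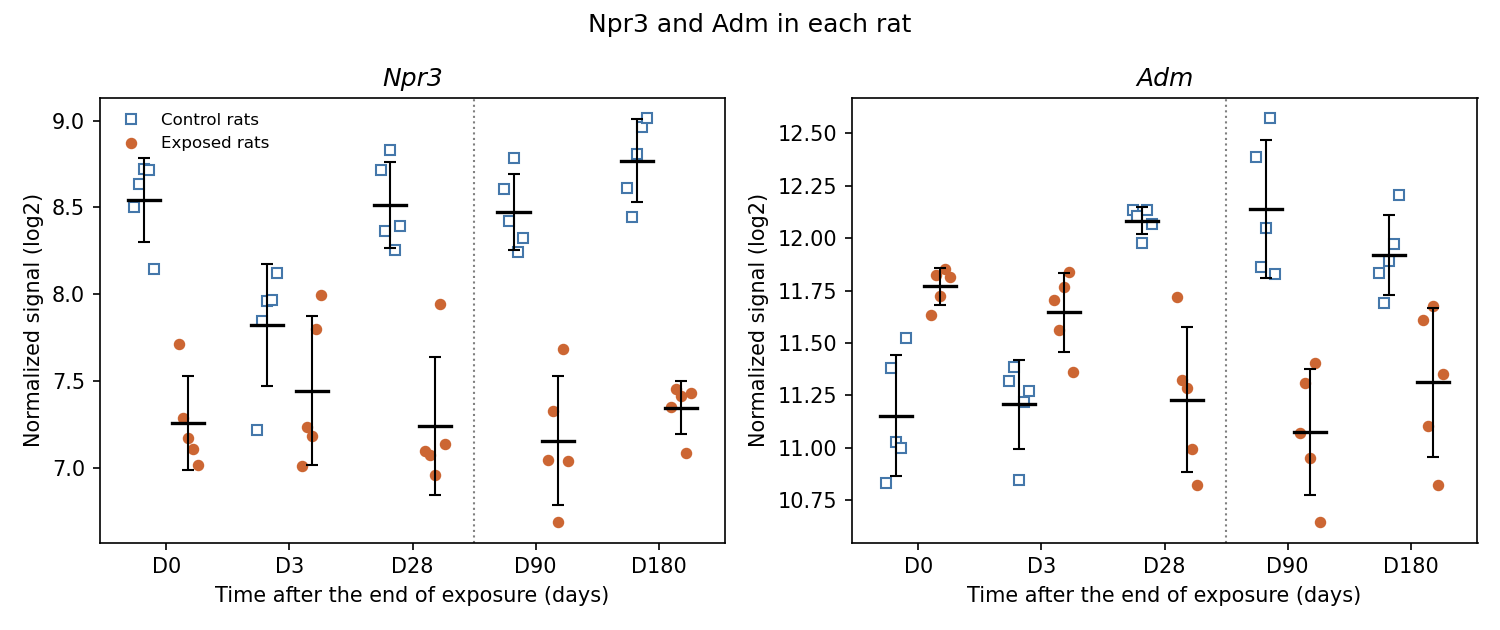
Normalized log2 signal of Npr3 (left) and Adm (right) in each rat by day after the end of exposure, with control rats as open squares, exposed rats as filled circles, black bars for the group mean and whiskers for 1 SD (n = 5 per group). The dotted line parts the days hybridised on different sets of slides. Npr3 is lower in all exposed rats than in all control rats at every day but D3, and Adm lies above the controls at D0 and below them from D28 to D180.

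Genes of the circadian clock moved with Adm. They were read in groups whose names serve as labels only. The positive arm group held Arntl (the clock activator BMAL1), Npas2 (a partner of it), Clock and also Nfil3, which is a repressor of the D-box and no activator. The clock output group held Dbp and Tef, together with Nr1d1, Nr1d2 and the Per genes, which are part of the core clock. Of 4 positive arm genes, 2 rose at D0 and 3 at D3 by the rule of at least 1.5-fold with an adjusted p under 0.05 (limma, Benjamini-Hochberg over all genes), and 3 fell at each of D28, D90 and D180. Their median difference was 0.66, 1.37, -0.89, -1.07 and -0.82 from D0 to D180, against -0.0103, -0.00832, -0.00138, 0.000548 and 0.00373 over all genes. Of 7 clock output genes, 6 fell at D0 and at D3, and 6, 6 and 5 rose at D28, D90 and D180, with medians of -0.95, -1.43, 1.23, 1.23 and 0.93. The same rule called 4.28%, 3.48%, 1.33%, 0.381% and 0.325% of all genes from D0 to D180, in either direction.

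The clock lists had no group overlap in summed linear signal at any day. At D0 the 7 output genes summed to between 52724 and 66589 in control rats and between 18315 and 24574 in exposed rats, and at D28 to between 6179 and 7044 in control rats and between 17283 and 37763 in exposed rats. Of the 11 clock genes, 10 were well above background on all 50 arrays and Per1 on 41. In control rats Arntl differed by 2.95 (SE 0.18) and Dbp by -4.51 (SE 0.24) between D28 and D0 on the same slides. The control level of Adm also differed between these days. Adm was chosen for a difference that turned between days, so its likeness to genes that also turn is a description. The hour at which rats were killed is not given in the sources used here, and the part of the clock in the Adm difference was not tested.

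The genes most like Adm over the 50 arrays, after the mean of each slide was subtracted, were Ccnjl (Pearson r = 0.85), Tead3 (0.82), Rtp3 (0.81), Nfil3 (0.81) and Arntl (0.80). Dbp had an r of -0.87 with Adm. These arrays share groups and slides, so the correlations describe the pattern and carry no p. For Npr3 the closest were Tmem26 (0.92), Wfdc1 (0.90), Tp53i11 (0.88), Fam101b (0.85) and Lphn2 (0.85). Among the other members Npr3 was closest to Ednrb (0.70) and Ramp2 (0.61), and with Adm its r was 0.43.

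**Figure D2:**
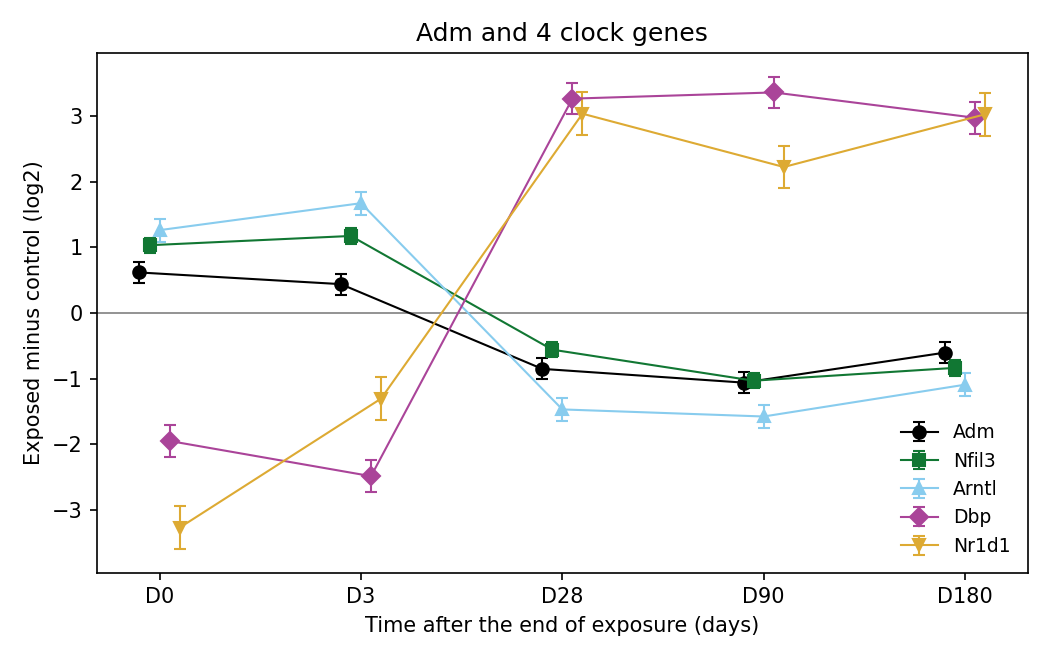
Difference between exposed and control rats (log2, y axis) of Adm and of the clock genes Nfil3, Arntl, Dbp and Nr1d1 by day after exposure, with whiskers for 1 SE of the fit. Adm, Nfil3 and Arntl are above 0 at D0 and D3 and below 0 later, and Dbp and Nr1d1 run the other way.

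The promoter of Adm is shown because the gene moved with clock genes, whose products bind short motifs. The 250 bases before its start (RefSeq, build GRCr8, chr1:174179950-174180199, plus strand) hold a TATA box (TATAA, in capitals) that begins 45 bases before the start.
Adm: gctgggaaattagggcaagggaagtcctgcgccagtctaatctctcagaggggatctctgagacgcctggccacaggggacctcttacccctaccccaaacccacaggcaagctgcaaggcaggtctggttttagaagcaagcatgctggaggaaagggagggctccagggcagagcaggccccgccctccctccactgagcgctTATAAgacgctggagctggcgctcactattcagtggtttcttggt
On either strand, TATAA was found in 24.0% of 33469 promoter windows of that length, and among the 8 members with a window in Nppa, Adm and Edn1. The clock E-box CACGTG (5.59% of windows), the D-box TTANGTAA (2.04%) and the ROR element core TAGGTCA (2.26%) were in none of the 8 members' windows. The hypoxia response core ACGTG (16.6% of windows), which also forms the last letters of the E-box, was found in Edn1 alone. A match is a run of letters, and its absence from this window says nothing of binding elsewhere.

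Of the 7 tested members that were measured (the 8 without Nppa), no gene passed 1.5-fold with an adjusted p under 0.05 in limma at any day (0 of 35 gene and day pairs). An unadjusted p under 0.05 was found for 12 of 35 pairs, against 15.4% of such pairs over all genes. From D0 to D180, the share of all genes that passed was 4.28%, 3.48%, 1.33%, 0.381% and 0.325%. With the adjusted p alone and no limit on size, 3 of 7 passed at D0, 2 at D3, 1 at D28 and none at D90 and D180, and all 6 pairs were lower in exposed rats. That rule called 13.5%, 10.4%, 3.88%, 1.05% and 0.893% of all genes from D0 to D180. In what follows, fell means an adjusted p under 0.05 at a size below 1.5-fold. The median difference of the 7 members was -0.28, -0.19, -0.14, -0.11 and -0.11 in the same order.

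Exposed and control groups did not overlap for 3 of the 10 members at D0 (Npr3, Adm and Ramp2), 1 at D3 (Ramp2) and 2 at each of D28, D90 and D180 (Npr3 and Adm). Over all genes the groups did not overlap for 8.53%, 6.78%, 3.8%, 3.82% and 4.22% from D0 to D180. Apart from the chosen Npr3 and Adm, only Ramp2 counts toward a share of the other members, at D0 and at D3.

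Ramp2, the accessory protein that makes Calcrl an adrenomedullin receptor, fell at D0 and D3. At D0 control rats had 14.31, 14.31, 14.29, 14.32 and 14.22 and exposed rats 13.90, 13.87, 13.50, 13.67 and 13.69. The groups were apart, and the difference was -0.57 (SE 0.07, limma adjusted p = 3.33e-08), or 1.48-fold lower. At D3 control rats had 13.91, 13.78, 13.97, 13.88 and 14.02 and exposed rats 13.43, 13.70, 13.50, 13.48 and 13.43, a difference of -0.40 (SE 0.07, limma adjusted p = 4.02e-05). Within slides it was lower in exposed rats on all 4 slides at D0 (-0.81 to -0.37) and at D3 (-0.47 to -0.28). The D0 value lay at the edge of the fold limit, and 2 other ways to make the values, normexp background correction and the authors' series matrix, put it at 1.56-fold lower, where it passed.

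Ramp2 differed less at later days. At D28 control rats had between 13.90 and 14.09 and exposed rats between 13.64 and 13.92 (difference -0.14, SE 0.07, limma adjusted p = 0.299), at D90 the difference was -0.16 (SE 0.07, limma adjusted p = 0.499) and at D180 -0.04 (SE 0.07, limma adjusted p = 1). The exposure effect was tested against that at D0, and it was 0.42 (SE 0.10, limma adjusted p = 0.00694) less negative at D28, 0.40 (SE 0.10, limma adjusted p = 0.0084) at D90 and 0.52 (SE 0.10, limma adjusted p = 0.000334) at D180, and 0.16 (SE 0.10, limma adjusted p = 0.649) at D3. These tests share the D0 arrays, where control rats were high. On the same slides control rats had 0.38 (SE 0.07, limma adjusted p = 0.00018) less Ramp2 signal at D3 and 0.32 (SE 0.07, limma adjusted p = 0.00143) less at D28 than at D0. A fit on only the arrays of the days compared gave adjusted p-values of 0.0729 at D28 and 0.0792 at D90 for the change of effect.

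Calcrl, the receptor itself, had control values between 9.69 and 10.18 (median 9.88) and exposed values between 9.14 and 9.79 (median 9.24) at D28, where 4 of 5 exposed rats lay below all controls. It fell there by 0.49 on the log2 scale (SE 0.15, limma adjusted p = 0.0447). That call rested on single rats and settings. It was lost, at adjusted p-values up to 0.167, without any 1 of control replicates 1, 2, 3 or 4 at D28, exposed replicates 2, 4 or 5 at D28, control replicate 2 at D90 or exposed replicate 1 at D180, and under 3 of 9 other settings, with adjusted p-values up to 0.243. At D3 control rats had between 9.46 and 10.15 and exposed rats between 9.09 and 9.70, a difference of -0.43 (SE 0.15, limma adjusted p = 0.0528). With slide as a block the difference was -0.34 and the limma adjusted p 0.0456. The slides that held both groups at D3 gave 0.04, -0.62, -0.008 and -0.60. At D0, D90 and D180 the differences were -0.18, -0.20 and -0.16 (SE 0.15 each, limma adjusted p = 0.536 to 1).

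Among the natriuretic receptors, Npr1 fell at D0. Control rats had between 13.94 and 14.54 (median 14.19) and exposed rats between 13.54 and 14.06 (median 13.75), and 3 of 5 exposed rats lay below all controls. The difference was -0.44 (SE 0.13, limma adjusted p = 0.0185), or 1.35-fold lower. The slides differed in Npr1, and within them the difference was nearly the same on all 4, from -0.49 to -0.45, with an adjusted p of 3.67e-08 when slide was a block. Without slide in the fit the call was lost, at adjusted p-values up to 0.0806, when control replicate 2 or 3 or exposed replicate 1 at D0 was left out. A fit on only the arrays of D0 gave an adjusted p of 0.148. At D3 the difference was -0.19 and at D28 -0.26 (limma adjusted p = 0.423 and 0.31), and at D90 and D180 -0.07 and -0.11 (SE 0.13 each, limma adjusted p = 1 at both).

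Npr2, the receptor of C-type natriuretic peptide, fell at D0 from between 10.02 and 10.40 (median 10.31) in control rats to between 9.87 and 10.17 (median 9.98) in exposed rats. The difference was -0.28 (SE 0.08, limma adjusted p = 0.0069), and it was lower on all 4 slides (-0.42 to -0.13). It held without any 1 of the 50 arrays, and an adjusted p of 0.148 came from a fit on only the arrays of D0. At the other days the difference lay between -0.02 and 0.05, with limma adjusted p-values of 0.912 to 1. The 95% intervals of these 4 differences together ran from -0.17 to 0.20, which excludes a change of 1.5-fold in either direction. Control rats had 0.34 (SE 0.08, limma adjusted p = 0.00226) less Npr2 signal at D3 than at D0.

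**Figure D3:**
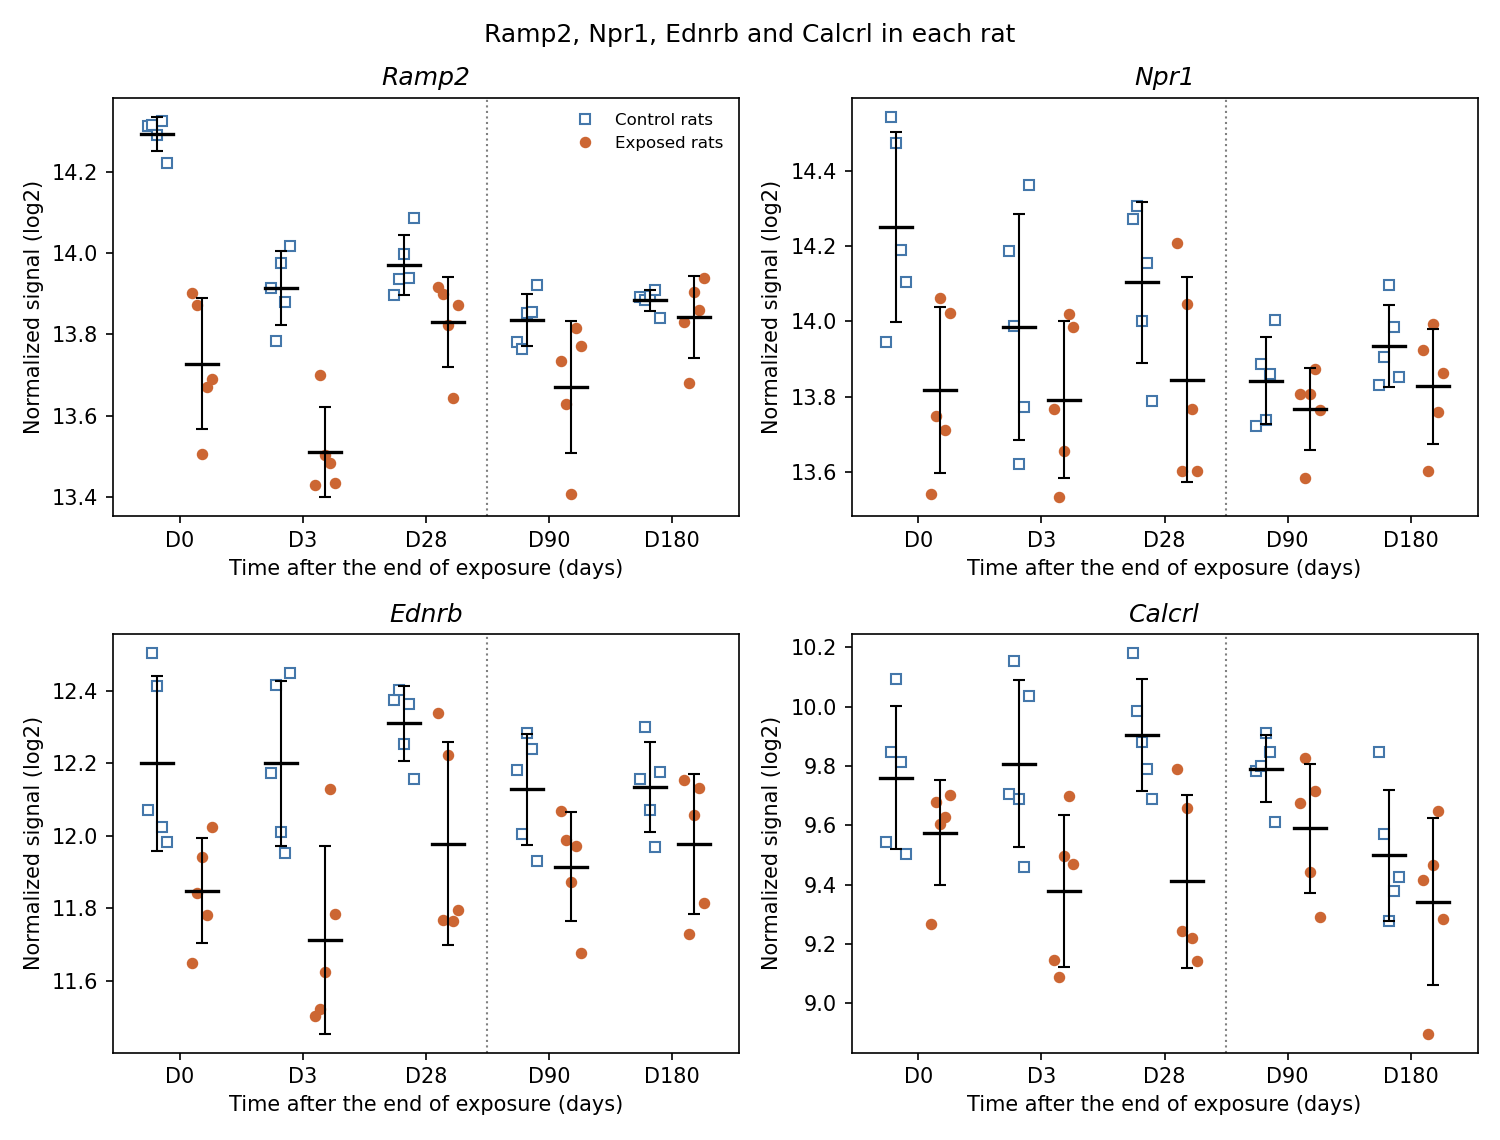
Normalized log2 signal of Ramp2, Npr1, Ednrb and Calcrl in each rat by day, with control rats as open squares, exposed rats as filled circles, black bars for the group mean and whiskers for 1 SD (n = 5 per group). The dotted line parts the 2 sets of slides. Ramp2 groups are apart at D0 and D3 and overlap later, and the other 3 genes overlap at every day.

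In the endothelin system the peptide did not pass the test and a receptor did. Edn1 had its largest difference at D28, with control rats between 8.94 and 9.53 (median 9.24) and exposed rats between 9.12 and 10.04 (median 9.71), 0.40 (SE 0.22, limma adjusted p = 0.366). At the other days its difference lay between -0.07 and 0.08, with limma adjusted p-values of 0.946 to 1. The SE of 0.22 was the widest of the members. At D0, for example, the 95% interval was -0.39 to 0.51.

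Ednrb fell at D3, from between 11.95 and 12.45 (median 12.17) in control rats to between 11.50 and 12.13 (median 11.62) in exposed rats. The difference was -0.49 (SE 0.12, limma adjusted p = 0.00582), or 1.40-fold lower, with 4 of 5 exposed rats below all controls. Only a fit on the arrays of D3 alone lost it, at an adjusted p of 0.127. At D0 the difference was -0.35 (SE 0.12, limma adjusted p = 0.0526) and at D28 -0.33 (SE 0.12, limma adjusted p = 0.134), and with slide as a block the adjusted p-values were 0.000149 and 0.015. At D90 and D180 it was -0.21 and -0.16 (SE 0.12 each, limma adjusted p = 0.903 and 0.96). On every slide with both groups, at every day, Ednrb was lower in exposed rats, from -0.65 to -0.04.

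Ednra had differences of -0.08, 0.07, -0.14, -0.11 and -0.38 from D0 to D180 (SE 0.19 each), none past the test (limma adjusted p = 0.607 at D180 and 0.766 or more at the other days). At D180 control rats had between 9.98 and 10.74 (median 10.16) and exposed rats between 9.68 and 10.14 (median 9.95). With slide as a block the D180 difference was -0.36 with an adjusted p of 0.0187. Its second probe, the one that resembles the Ednrb probe, gave -0.05, -0.17, -0.62, 0.08 and -0.23 (SE 0.24 each). The probes had opposite signs at D3 and at D90, and the second was lowest at D28, where its limma adjusted p was 0.147.

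**Figure D4:**
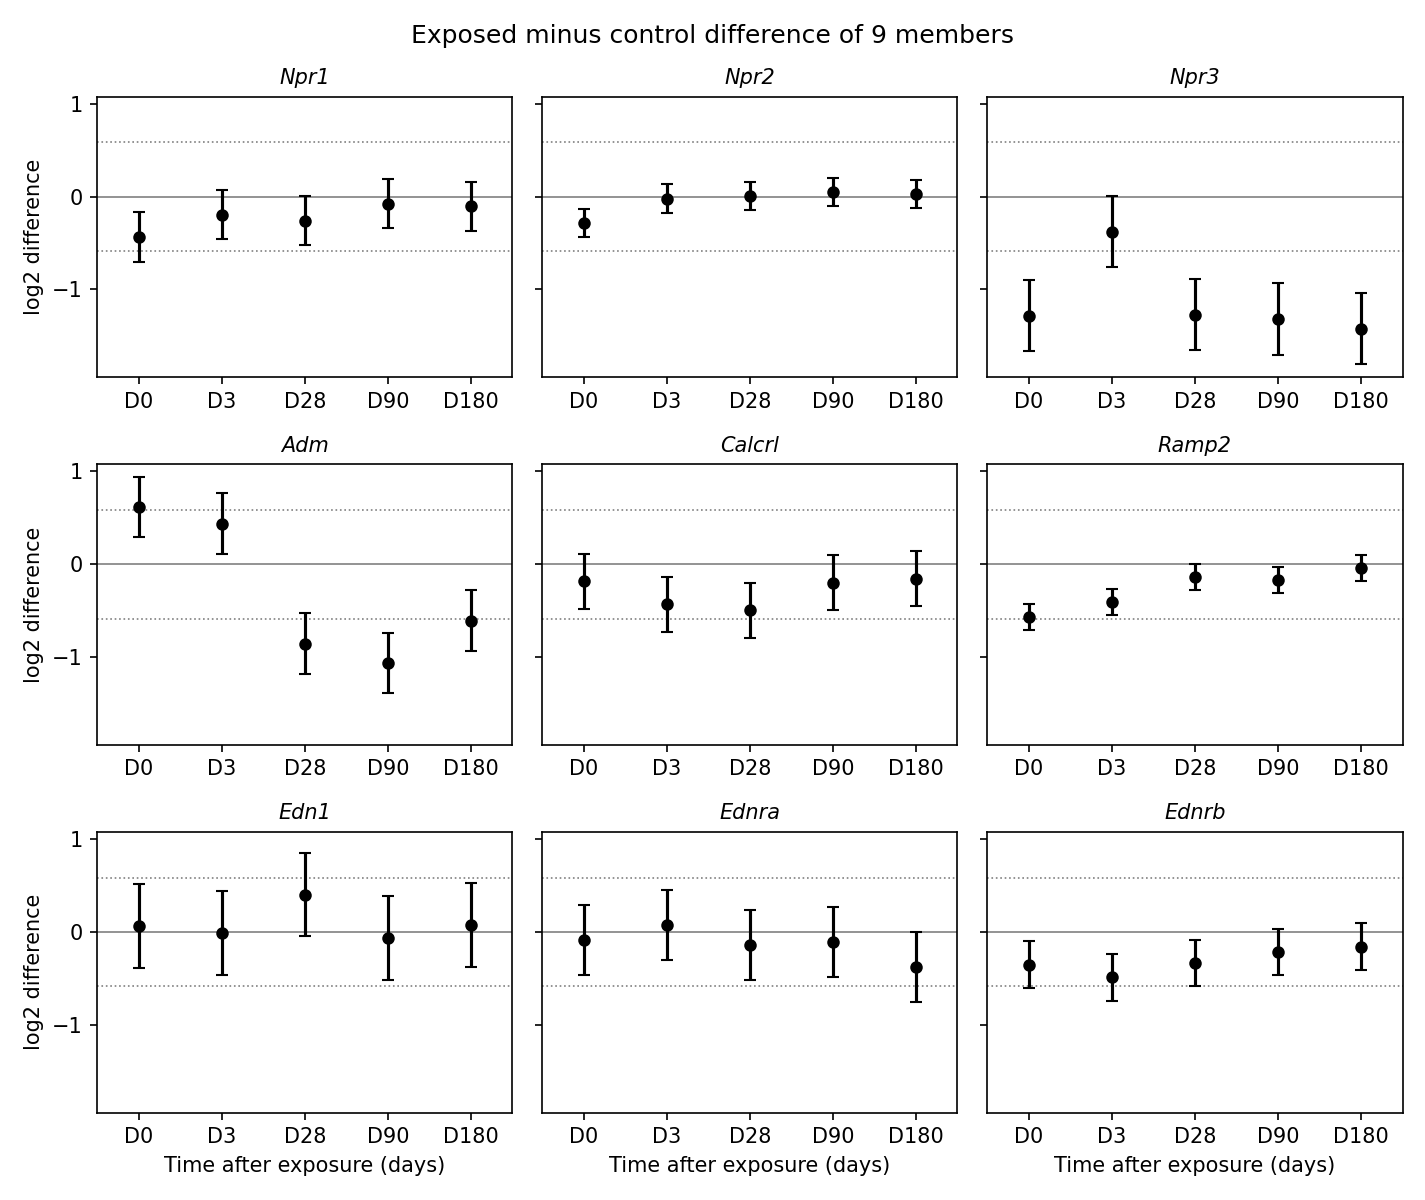
Difference between exposed and control rats (log2, y axis) for 9 members by day after exposure, with 95% intervals of the fit. Dotted lines mark a change of 1.5-fold. Npr3 and Adm were chosen for this pattern, so their intervals are a description and no test. Their points lie past the lines at every day but D3. Npr1, Npr2, Calcrl, Ramp2, Edn1, Ednra and Ednrb have their points inside the lines at every day.

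Exposure effects at later days were compared with D0 for the 7 members. None of 28 gene and day pairs passed with the fold limit in limma. An unadjusted p under 0.05 was found for 7, against 12.2% of pairs over all genes, and the background with the fold limit over all genes was 0.678%, 1.61%, 2.17% and 2.24% from D3 to D180. With the adjusted p alone 3 passed, all Ramp2, against 0.928%, 2.61%, 3.77% and 3.99% of all genes. With slide as a block 10 passed, when the share over all genes and days also rose, from 2.82% to 9.77%. Npr1 was then added at D3, D28, D90 and D180 (0.32, 0.31, 0.39 and 0.40 less negative than at D0, adjusted p = 0.0178, 0.0109, 0.000541 and 0.000459) and Npr2 at D28, D90 and D180 (0.26, 0.30 and 0.25, adjusted p = 0.035, 0.0062 and 0.026).

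Control rats were compared between days on the same set of slides. With the fold limit none of 21 pairs passed in limma, where 5 had an unadjusted p under 0.05 (13.8% of pairs over all genes), and 2.33% of all genes passed between D3 and D0, 2.49% between D28 and D0 and 0.0198% between D180 and D90. With the adjusted p alone, 3 pairs passed, namely Ramp2 at D3 and D28 and Npr2 at D3, against 7.36%, 7.08% and 0.0278% of all genes. With slide as a block, which moved the share of all pairs past the adjusted p from 4.82% to 12.4%, Npr1 was also lower at D3 and D28 than at D0, by -0.37 and -0.25 (adjusted p = 1.04e-05 and 0.00185), and Npr2 at D28 by -0.17 (adjusted p = 0.0287). So the control level at D0 was the highest of its set of slides for Ramp2, Npr1 and Npr2, each of which also had its largest exposure difference at D0.

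Markers of endothelium moved in the same direction as these receptors. Of 12 markers, 8 had a lower signal at D0 by the adjusted p, 3 of them by over 1.5-fold: Cldn5 (a tight junction protein, -0.87, SE 0.10), Egfl7 (-0.69, SE 0.14) and Tek (the angiopoietin receptor, -0.59, SE 0.11). At D3, D28, D90 and D180 the counts lower were 6, 2, 0 and 1, and 1 marker was higher at each of D28 and D90. Over all genes the adjusted p called 13.5%, 10.4%, 3.88%, 1.05% and 0.893% from D0 to D180, in either direction. The median of the 12 was -0.36, -0.34, -0.17, -0.13 and -0.15 from D0 to D180. Their summed linear signal was between 178892 and 195560 in control rats and between 123738 and 163447 in exposed rats at D0. At D3 it was between 158446 and 172067 and between 117934 and 142646, and at D28 between 167936 and 189494 and between 147749 and 166587. The groups did not overlap on these days. They overlapped at D90 and at D180, where the sums were between 169891 and 199173 and between 163072 and 180629. Each marker was well above background on 40 or more arrays. As for Ramp2 and Npr2, Cldn5, Egfl7 and Tek were also lower in control rats at D3 than at D0, by -0.62, -0.62 and -0.60. In Ednrb and Calcrl this control difference was 0.001 (SE 0.12) and 0.05 (SE 0.15). The part of the endothelial share of the lobe in the fall of Ramp2, Npr1, Npr2, Ednrb and Calcrl was not tested.

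Of 8 capillary endothelial markers, 1 was lower at D0 by the adjusted p, namely Gpihbp1, which anchors lipoprotein lipase in capillaries (-1.24, SE 0.12). At D3 3 were lower and 1 was higher, against 10.4% of all genes in either direction (13.5% at D0). Their summed signal overlapped at D0, at 211716 to 276801 in control rats and 165419 to 225796 in exposed rats. Fibin was higher at D3 (0.61) and lower on the later days, with -1.33, -1.16 and -0.79 from D28 to D180 (SE 0.14 each, all past the fold limit and the adjusted p). The median of the 8 was -0.24 at D0 and -0.07 at D180. All 8 smooth muscle markers were lower at D0 by the adjusted p, with a median of -0.56, and Actg2 (-0.89, SE 0.15) and Cnn1 (-0.71, SE 0.15), both contractile proteins, passed the fold limit. Their summed signal did not overlap at D0, at 23606 to 26706 in control rats and 13980 to 18368 in exposed rats. At D3 1 of the 8 was lower and at later days none. Over all genes the adjusted p called 13.5% at D0 and 10.4% at D3. In control rats 5 of the 8 were lower at D3 than at D0 by the adjusted p, with a median of -0.45. At D28 against D0 it was 2 of the 8, with a median of -0.31. That rule called 7.36% and 7.08% of all genes in these control comparisons. Of 8 pericyte markers, 3 were lower and Notch3 was higher (0.86 and 1.04, SE 0.26 each) at D0 and at D3, with medians of -0.35 and -0.24. Cspg4 at D0 (-0.69, SE 0.13) and Abcc9 at D3 (-0.69, SE 0.18) passed the fold limit.

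Among the remaining lists, none of 11 cardiac muscle markers passed the adjusted p at any day, and each was well above background on 31 or more of the 50 arrays. Of 7 fibroblast markers, 1 was lower at D0 and 1 at D28 by the adjusted p, none by 1.5-fold. Over all genes the adjusted p called 13.5% at D0 and 3.88% at D28. Of 6 mesothelial markers, Upk3b (-0.60, SE 0.16) and Wt1 (-0.71, SE 0.21) were lower at D3 by both limits. Of the 8 lung epithelial markers Hopx was lower at D3 (-0.65, SE 0.19). Of 8 neutrophil markers Lcn2 (3.22 and 2.45, SE 0.21), S100a8 (1.37 and 1.56, SE 0.16) and S100a9 (1.69 and 1.68, SE 0.17) were higher at D0 and D3 by both limits, and S100a9 at D28 too (0.88, SE 0.17). By the adjusted p alone, 5 neutrophil markers were higher and 1 was lower at D3, against 10.4% of all genes in either direction. Of 8 macrophage markers Itgam was higher at D0 (0.81), D3 (0.93) and D28 (0.74, SE 0.12 each), and Siglec1 (0.94, SE 0.10) at D3.

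Adm is usually counted among hypoxia targets. Of 11 other such genes 1 was higher at D0 by both limits, the glucose transporter Slc2a1 (0.67, SE 0.14), and 4 were lower by the adjusted p alone. Their medians were -0.17, -0.08, 0.13, 0.05 and 0.02 from D0 to D180. At D0 the adjusted p alone called 13.5% of all genes. Of 10 glucocorticoid responsive genes, Dusp1 (-1.07, SE 0.29) and Klf15 (-1.12, SE 0.22) were lower and Mt2A was higher (1.35, SE 0.16) at D0. At D3 Klf15 (-1.15, SE 0.22) and Klf9 (-0.63, SE 0.17) were lower and Mt2A was higher (0.62, SE 0.16), and at D28 Fkbp5 (-1.05, SE 0.31) and Zbtb16 (-2.74, SE 0.80) were lower. The part of these lists in the members' differences was not tested.

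The other genes of the pathways were read from lists. Of 23 natriuretic and cyclic GMP genes, 5 were lower and 1 higher at D0, 7 and 2 at D3, 2 and 2 at D28, and 0 and 1 at D90 by the adjusted p, and none passed at D180. Their median was -0.22, -0.20, -0.24, -0.12 and -0.07. Over all genes the adjusted p called 13.5%, 10.4%, 3.88%, 1.05% and 0.893% from D0 to D180. Nos3, the endothelial nitric oxide synthase, was lower at D0 (-0.84, SE 0.09, limma adjusted p = 4.04e-10). Corin, the protease that activates atrial natriuretic peptide, was lower at D0 (-0.69) and D3 (-0.70, SE 0.23 each). Its signal was low beside that of the measured members, with control and exposed means of 5.28 and 4.59 at D0 and 5.12 and 4.43 at D3. Pde5a, which breaks down cyclic GMP, was lower at D3 (-0.61, SE 0.12), and so was Prkg1, the kinase that cyclic GMP activates (-1.20, SE 0.34), though Prkg1 was well above background on only 28 of 50 arrays.

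Of 11 adrenomedullin and CGRP genes, 1 was higher and 2 lower at D0, 1 was higher and 3 lower at D3 by the adjusted p, and none passed it later. Over all genes the adjusted p called 13.5% at D0 and 10.4% at D3. Calcb, which encodes a calcitonin gene-related peptide, another ligand of Calcrl, rose at D0 (1.57, SE 0.30, limma adjusted p = 0.000159) and D3 (0.93, SE 0.30, limma adjusted p = 0.0371). Calca, another gene of this list, had lower exposed than control means at these days, 8.56 against 8.88 and 7.43 against 8.06. At D90 and D180 its exposed means were the higher, 8.27 against 7.67 and 8.32 against 7.93. Cxcr7 (now Ackr3), a decoy receptor that also binds adrenomedullin, was lower at D0 by both limits (-0.63, SE 0.14, limma adjusted p = 0.000809). Of 5 other endothelin genes, Ece1, which cuts endothelin to its active form, was lower at D0 (-0.35, SE 0.12, limma adjusted p = 0.0423), and the ligand Edn3 was lower at D3 (-0.75, SE 0.13, limma adjusted p = 2.65e-05). Adm5 and Edn2 were not analysed here.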

How the data were processed

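Total RNA from 50 rat lungs was read on one-colour Agilent arrays. The deposited array files hold spot intensity on a linear scale, made by the authors with Agilent Feature Extraction 11.0.1.1 per the file headers, background-corrected and not scaled between arrays. The authors' series matrix holds quantile normalized median intensity and served as an alternative.

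Processed intensity of spots not marked as outliers was averaged per probe as log2 and quantile normalized. Probes above the 95th percentile of negative controls on at least 5 arrays were kept (29549 probes), and the probe of highest mean stood for a gene. limma 3.58.1 in R 4.3.3 fitted a mean for each of 10 groups. P-values were two-sided and adjusted over 25208 genes. The call rule of the study, 1.5-fold and an adjusted p under 0.05, was kept, with the adjusted p alone as an alternative. The fit was tested on simulated data. The number of arrays limits the precision.

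Members, gene lists and comparisons were chosen with earlier results of these data known. The text names all members, list genes passing both limits at any day (at most 8 per list, by largest change; a list gene is not reported here), and the 5 genes most like Npr3 and Adm by Pearson r over arrays after slide means were subtracted. The likeness of Nppa is not given, since it was not above background. Ece1, Nppb, Per1 and the clock genes' correlations were picked after their values were seen. Promoters came from RefSeq (GRCr8) and were found for 8 of 10 members. Alternatives covered scaling, background correction, the series matrix, the filter on dim probes, slide and replicate as blocks, the arrays fitted and each array left out.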

Additional observations from a re-analysis of the deposited data

Results flagged for a closer look

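A single rat lay far from the other 4 of its group in 8 of the 90 combinations of 9 measured members and 10 groups, where chance alone marks about 1 in 20 groups. The measure is the gap from that rat to the nearest other as a share of the range of the group, marked where it passed the 95% critical value of Dixon's test. Npr2 had 4 such rats, namely the lowest control rat at D0 (0.735), the lowest exposed rat at D3 (0.866), the highest control rat at D90 (0.824) and the lowest exposed rat at D180 (0.779). In Npr3 the highest exposed rat at D28 (0.818) and the lowest exposed rat at D180 (0.717) stood apart. In Calcrl it was the lowest exposed rat at D0 (0.777) and in Ramp2 the highest exposed rat at D3 (0.725).

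Exposure effects differed between days in Ramp2, by a test of the difference against D0. The log2 effect was higher than at D0 by 0.42 (D28), 0.40 (D90) and 0.52 (D180), with limma adjusted p-values of 0.00694, 0.0084 and 0.000334. In Adm all exposed rats lay above all control rats at D0 and below them from D28 on. The effect was lower than at D0 with a difference of -1.47 (D28), -1.68 (D90) and -1.22 (D180). The difference in Adm was not tested, since Adm was chosen for it.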

How the results depend on the processing

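Npr3 and Adm kept their sign at every day under all 9 other settings and without any 1 of 50 arrays. Over the 9 settings Npr3 ranged from -1.32 to -1.01 at D0, -0.38 to -0.24 at D3 and -1.30 to -0.95 at D28. It ranged from -1.32 to -0.99 at D90 and -1.44 to -1.10 at D180, where normexp background correction moved it by more than the SD, to -1.10. Over the same settings Adm ranged from 0.60 to 0.63, 0.43 to 0.46, -0.85 to -0.81, -1.06 to -1.03 and -0.62 to -0.58. With 1 array left out, the ranges of Npr3 were -1.40 to -1.22, -0.53 to -0.27, -1.45 to -1.19, -1.45 to -1.20 and -1.50 to -1.36. Those of Adm were 0.54 to 0.71, 0.35 to 0.51, -0.98 to -0.75, -1.14 to -0.95 and -0.70 to -0.48. Scaling by the 75th percentile moved the median of all genes by less than 0.1.

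For the 7 tested and measured members, pairs of gene and day called with the fold limit numbered 0 of 35 for exposure, 1 under normexp and 1 with the series matrix (Ramp2 at D0), and 0 to 1 without single arrays (Ramp2 at D0 without exposed replicate 1 or 2, Ednrb at D3 without exposed replicate 4, Calcrl at D28 without exposed replicate 1). With no fold limit there were 6 pairs for exposure, 3 for later days against D0 and 3 for control rats. With slide as a block these were 10, 10 and 6, where the share of pairs over all genes also rose, from 5.95% to 13.7%, from 2.82% to 9.77% and from 4.82% to 12.4%. With only the arrays of the days compared the first and second were 2 and 1, and the shares over all genes 2.19% and 1.8%. Leaving out single arrays gave 5 to 9 pairs for exposure (9 without exposed replicate 1 at D28), 3 to 5 for later days (5 without control replicate 4 at D0) and 3 each time for control rats. Of the 35 exposure differences, 10 (in Npr2, Edn1 and Ednra, none past the adjusted p) changed sign under at least 1 setting or left-out array.

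Replicate numbers run from 1 to 5 in each group but name different rats. Only 8 of 25 same-numbered pairs correlated above 0.1 (median r -0.0303), and 6 of 25 control rats correlated best with their own number. Slide was not removed from these correlations and 7 same-numbered pairs shared a slide, so they cannot settle whether the numbers carry a pairing. With the replicate block 5 pairs passed the adjusted p, Calcrl at D28 being lost (0.0571), 3 for later days and 3 for control rats, and none passed the fold limit.

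The depth of an array is its signal over background. Nppa could not be measured, and Edn1 had the widest SE of the measured members.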
